A study of Homo sapiens with 24 samples.

Results

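Keratins, the keratin-associated protein KRTAP3-1, the proteins of the cornified envelope and the proteins of the desmosome were followed as 1 set of 43 genes across 24 expression arrays of T-47D breast cancer cells. A member was taken where the array's platform annotation pairs a probe set with its symbol, which gave 39 of the 43 genes on 43 probe sets, out of 20148 genes with a symbol and 21042 probe sets tested. KRT6A, KRT6B, KRT17 and KRT81 have no probe set in the annotation used here and were not analysed here. Counts over the members use 1 probe set a gene, the brightest of those annotated to that symbol alone.

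T-47D is an established human line from a breast cancer of the luminal kind that carries the estrogen receptor, and all groups come from this 1 line. The study asked which genes respond to HRG (heregulin, a growth factor that binds ErbB3 and ErbB4) and which of these responses change when P-Rex1, an activator of the GTPase Rac, is silenced. Parental cells that received no duplex, cells given a non-target control duplex (NTC) and cells given either of 2 duplexes against P-Rex1 (P-Rex1 RNAi #1 and #2) were all serum starved and then treated with HRG at 20 ng/ml or with vehicle (PBS) for 6 h, with 3 biological replicates in each of these 8 groups. The duplexes were transfected transiently, so each RNAi group is a mixed population and not a clone. Values are log2 expression values that the authors made by Robust Multichip Average (RMA), so a difference of 1 is a 2-fold change. The level of a probe set is compared between arrays and not with that of another probe set.

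Keratins form the intermediate filaments of epithelial cells, in pairs of a type I and a type II chain, and the pair in use marks the kind of epithelium: KRT8 with KRT18 and KRT19 in simple, glandular layers such as the luminal breast, KRT5 with KRT14 in basal layers, and KRT4 with KRT13 in the moist stratified linings. Desmosomes tie these filaments to the cell surface, where the cadherins of the DSG and DSC families bind those of the next cell and plakoglobin (JUP), the plakophilins (PKP) and desmoplakin (DSP) join them to keratin. The cornified envelope is the shell of proteins, among them involucrin (IVL) and the small proline-rich proteins (SPRR), that transglutaminases cross-link under the membrane of a maturing keratinocyte.

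The targeted gene followed its label. PREX1 averaged 10.60 in parental and 10.42 in NTC vehicle arrays and 8.99 and 9.0 with #1 and #2, so it fell by 1.52 and by 1.51 on the log2 scale against the mean of both controls. HRG itself lowered it by 1.05 in parental and by 0.97 in NTC cells. All 9 luminal markers, among them GATA3, FOXA1 and KRT8, averaged above the lower 25% of the arrays in every group, and ESR1 (the estrogen receptor) was the 1 of them that HRG lowered in parental cells, by 0.98. Of 6 leukocyte, 6 fibroblast and 5 endothelial markers 0, 1 (LUM, higher with HRG) and 0 were called in parental cells. Below that level, which is 4.27 on the lowest array, on all 24 arrays lay 1 marker each of the leukocyte (PTPRC), fibroblast (DCN) and myoepithelial (MME) lists. The other markers of these lists did not, among them TYROBP (median over the arrays 6.98), COL1A1 (7.41) and ACTA2 (8.01). The summed log2 level ran from 30.7 to 32.4 for the leukocyte, 32.6 to 35.5 for the fibroblast and 21.6 to 23.4 for the endothelial list, and their part in the results was not tested. Array medians lay between 6.04 and 6.18. On the second principal component 4 arrays stood apart at the upper end, between 11.3 and 17.5: vehicle replicate 3 of the parental cells, HRG replicate 3 of NTC, vehicle replicate 2 of #1 and HRG replicate 3 of #2. At the lower end HRG replicate 1 of #2 lay farthest, at -11.7, and is not among these 4. Calls of members that are lost without the 4 arrays are named with the gene.

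HRG raised 14 of the 39 measured members in parental cells and lowered 0 (limma, adjusted p below 0.05 and more than 1.5-fold). In bulk samples fewer cells of a type and less RNA per cell cannot be told apart. Over all probe sets tested, 2.86% were higher and 2.41% lower by this rule. The members were chosen with earlier results of these data known, so the counts beside these shares are a description and no test. In NTC cells 15 members were higher and 0 lower, beside 2.64% and 3.37% of all probe sets. The lists share 13 genes and together hold 16. With no adjustment and no fold threshold, 18 of the 39 were higher and 2 lower (EVPL and PKP2) at p under 0.05 in parental cells, beside 38% of all probe sets in either direction. In NTC cells 26 were higher and 2 lower (DSP and PKP2), beside 39.2%. The median member moved by 0.12 in parental and by 0.22 in NTC cells, and the median probe set by -0.03 and 0.03. With P-Rex1 RNAi #1 HRG raised 12 members (2.52% of all probe sets, 3.67% called in either direction), and with #2 it raised 3 (1.07%), KRT15, KRTAP3-1 and IVL. The count with #1 is 8 without its HRG replicate 3, and KRT23, SFN, EMP1 and DSC2 are the calls lost. 0 members were lower with either duplex, beside 1.15% and 0.656% of all probe sets, and at an unadjusted p under 0.05 20 were higher and 1 lower with #1 (38% of all probe sets) and 14 higher and 2 lower with #2 (26.2%).

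**Figure D1:**
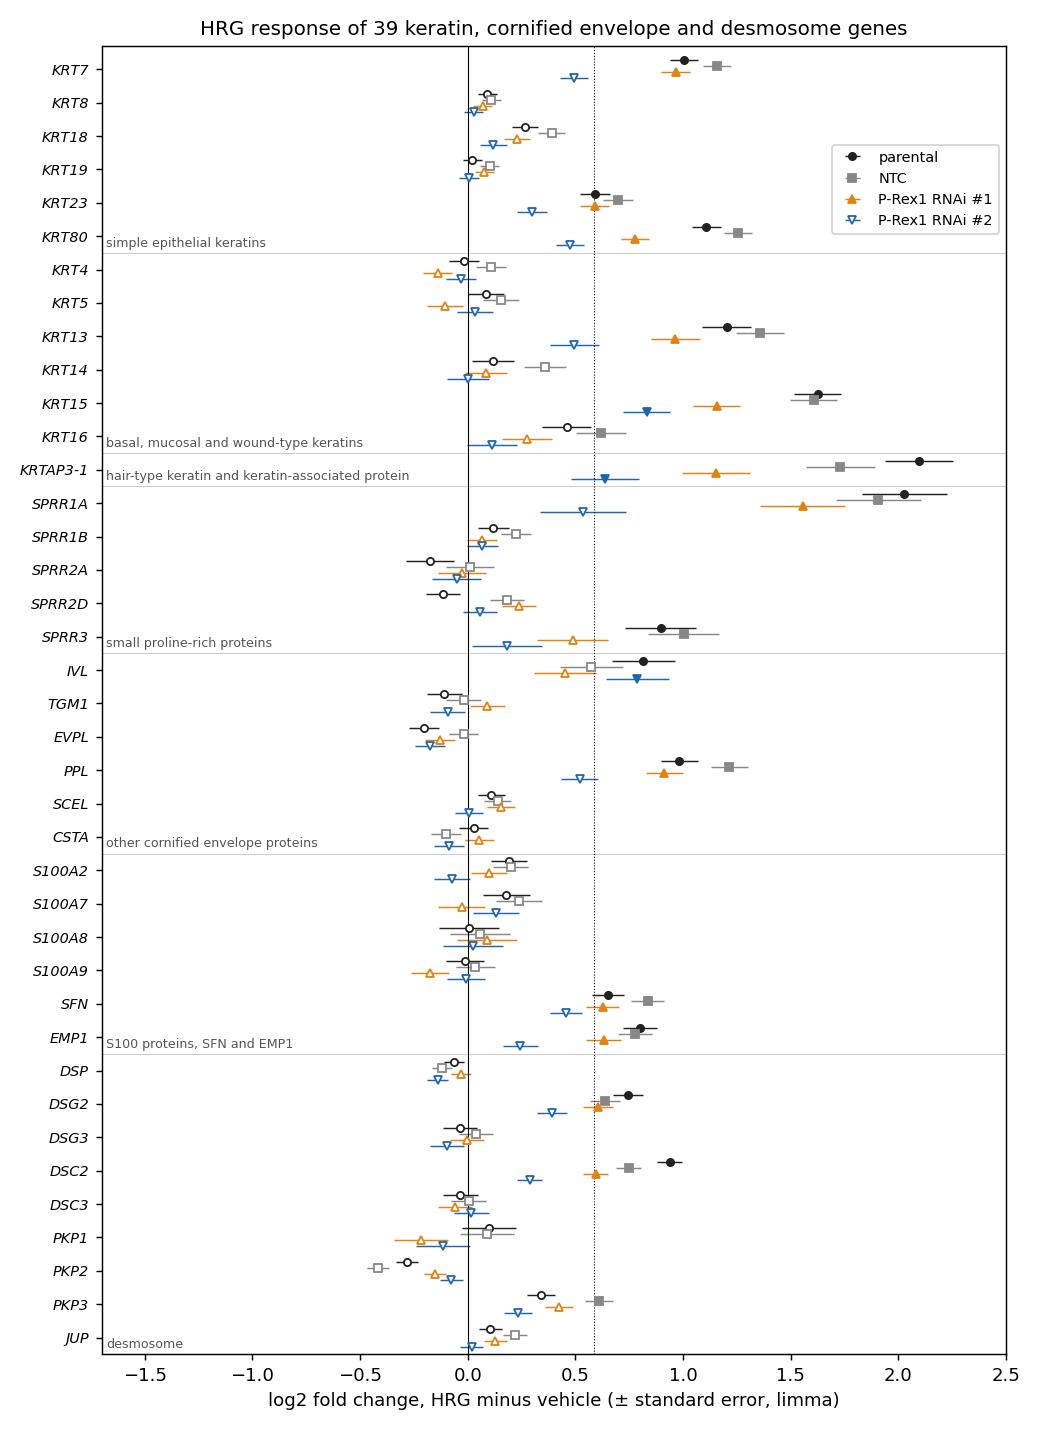
The x axis gives the log2 fold change, HRG minus vehicle, of each of the 39 measured members in parental and NTC cells and with RNAi #1 and #2, with bars of 1 standard error, filled symbols for called changes and a dotted line at the 1.5-fold threshold. KRTAP3-1 and SPRR1A lie farthest to the right in parental cells, KRT8, KRT19 and DSP lie near 0, and for most raised genes the #2 symbol is the leftmost.

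In the 6 control HRG arrays (parental and NTC) all 16 raised members lay above all 6 control vehicle arrays, which describes the arrays that chose them and is no further test. KRT18 and JUP separated in the same way, which makes 18 of 39 members, beside 11.7% of all probe sets. PKP2 was the 1 member whose HRG arrays all lay below the vehicle arrays, beside 14.4% of all probe sets. With #1 and HRG, 5 members lay below all 6 control HRG arrays on all 3 arrays (4.59% of all probe sets) and 1 lay above (7.08%). With #2 and HRG 18 lay below (6.68%) and 5 above (7.56%).

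Among the keratins of simple epithelia, HRG raised KRT7, KRT23 and KRT80 and did not change KRT8, KRT18 or KRT19 by 1.5-fold. KRT7, the type II keratin of ducts and glands, was at 9.50, 9.59 and 9.65 in the parental vehicle arrays and 10.57, 10.59 and 10.60 with HRG. KRT7 in NTC cells was at 9.58, 9.52 and 9.45 with vehicle and 10.62, 10.70 and 10.71 with HRG. The HRG arrays were about 1 unit higher with no overlap, by 1.00 ± 0.07 (SE) in parental cells (adjusted p = 1.1e-10) and 1.16 ± 0.07 (SE) in NTC cells (adjusted p = 1.16e-11). KRT7 was at 9.39, 9.40 and 9.35 without and 10.34, 10.28 and 10.43 with HRG under #1, and at 9.64, 9.61 and 9.78 without and 10.24, 10.01 and 10.25 with HRG under #2. All HRG arrays of #1 lay below those of the controls, as did its vehicle arrays, and the HRG arrays of #2 lay lower still, with rises of 0.96 ± 0.07 (SE) and 0.50 ± 0.07 (SE). The rise with #2 was smaller than in the controls by 0.59 (interaction -0.59 ± 0.08 (SE), adjusted p = 9.51e-05), while the interaction with #1 was -0.12 ± 0.08 (SE) (adjusted p = 0.43).

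KRT80, a type II keratin of the filaments near the desmosomes of differentiating epithelium, was at 8.49, 8.66 and 8.50 in the parental vehicle arrays and 9.55, 9.73 and 9.69 with HRG. KRT80 in NTC cells was at 8.58, 8.63 and 8.59 with vehicle and 9.71, 9.87 and 9.97 with HRG. Its vehicle and HRG arrays did not overlap, and it rose by 1.11 ± 0.07 (SE) in parental cells (adjusted p = 2.98e-11) and by 1.25 ± 0.07 (SE) in NTC cells. The values were 8.59, 8.57 and 8.61 without and 9.32, 9.33 and 9.45 with HRG under #1, and 8.75, 8.77 and 8.76 without and 9.26, 9.17 and 9.27 with HRG under #2. All 6 HRG arrays of the silenced cells lay below all 6 control HRG arrays. KRT80 was the single member whose HRG response changed with #1 at an adjusted p under 0.05 (3 members with the replicate number as a block), by -0.40 ± 0.08 (SE) (adjusted p = 0.0202), and it changed by -0.71 ± 0.08 (SE) with #2 (adjusted p = 1.46e-05). The call with #1 is lost without #1 vehicle replicate 2, #1 HRG replicate 1 or #1 HRG replicate 2, with interactions between -0.42 and -0.38, and is -0.37 without the 4 arrays that stand apart.

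KRT23, a type I keratin of glandular epithelia, was high before HRG, at 11.09, 11.18 and 10.95 in the parental vehicle arrays and 11.69, 11.55 and 11.76 with HRG. KRT23 in NTC cells was at 10.93, 11.04 and 10.85 with vehicle and 11.58, 11.69 and 11.64 with HRG. The HRG arrays stood above the vehicle arrays in both, by 0.59 ± 0.07 (SE) and 0.70 ± 0.07 (SE). The parental rise sits at the 1.5-fold line and falls under it without parental vehicle 3, HRG 1 or HRG 3, to 0.53 at the lowest. The call with #1 is likewise lost without #1 vehicle 2 or 3 or #1 HRG 1 or 3, to 0.57 at the lowest. In silenced cells KRT23 was at 10.89, 10.82 and 10.79 without and 11.45, 11.38 and 11.44 with HRG under #1, and at 10.89, 10.99 and 10.86 without and 11.32, 11.18 and 11.13 with HRG under #2, with rises of 0.59 ± 0.07 (SE) and 0.30 ± 0.07 (SE). The change with #2 was called (interaction -0.35 ± 0.09 (SE), adjusted p = 0.0215; with #1 -0.05 ± 0.09 (SE), adjusted p = 0.747). Without P-Rex1 RNAi #2 HRG replicate 3 or vehicle replicate 2 the interaction with #2 is -0.31 and is not called. Without the 4 arrays that stand apart it is -0.28 and is not called (adjusted p = 0.104).

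KRT8, KRT18 and KRT19, the filament proteins of luminal cells, sat between 12.12 and 12.78 on all 24 arrays. KRT8 moved by 0.09 with HRG in parental cells (95% interval -0.00 to 0.18) and KRT19 by 0.02 (95% interval -0.07 to 0.11), intervals that leave out a 1.5-fold change (0.585 on the log2 scale). KRT18 moved by 0.27 ± 0.06 (SE) in parental cells (adjusted p = 0.00187) and 0.39 ± 0.06 (SE) in NTC cells (adjusted p = 3.16e-05), under the fold threshold. Its other 2 probe sets, 1 of them shared with MIR622, gave 0.23 and 0.26 in parental cells, and since KRT18 has many near-identical copies in the genome these values are uncertain.

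In the group of basal, mucosal and wound-type keratins, HRG raised KRT13 and KRT15 in both controls and KRT16 in NTC cells, and left KRT4, KRT5 and KRT14 uncalled. KRT15, a type I keratin of the basal layer of stratified epithelium, was at 7.40, 7.28 and 7.18 in the parental vehicle arrays and 8.77, 8.77 and 9.20 with HRG. KRT15 in NTC cells was at 7.19, 7.23 and 7.16 with vehicle and 8.63, 8.77 and 9.0 with HRG. No HRG array came within 1 unit of a vehicle array, and the rises were 1.63 ± 0.11 (SE) (adjusted p = 1.64e-10) and 1.61 ± 0.11 (SE) (adjusted p = 2.06e-10). It stood at 7.23, 7.32 and 7.34 without and 8.28, 8.46 and 8.62 with HRG under #1, and at 7.29, 7.22 and 7.28 without and 8.06, 7.95 and 8.26 with HRG under #2. HRG still raised KRT15 with each duplex, by 1.16 ± 0.11 (SE) and 0.83 ± 0.11 (SE), and all 6 of these HRG arrays were below all 6 control HRG arrays. The response was smaller with both duplexes together by 0.62 (interaction -0.62 ± 0.11 (SE), adjusted p = 0.00143).

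KRT13, the type I partner of KRT4 in mucosal epithelium, was at 6.56, 6.73 and 6.87 in the parental vehicle arrays and 8.01, 7.71 and 8.06 with HRG. KRT13 in NTC cells was at 6.62, 6.71 and 6.43 with vehicle and 7.98, 7.69 and 8.17 with HRG. It rose without overlap by 1.20 ± 0.11 (SE) and 1.36 ± 0.11 (SE). Under the duplexes it was at 6.61, 6.86 and 6.84 without and 7.84, 7.68 and 7.69 with HRG with #1, and at 7.12, 7.01 and 6.89 without and 7.51, 7.41 and 7.59 with HRG with #2. The #2 vehicle arrays were higher than every control vehicle array and the #2 HRG arrays lower than every control HRG array. The interaction was -0.79 ± 0.14 (SE) with #2 (adjusted p = 0.00141) and -0.32 ± 0.14 (SE) with #1 (adjusted p = 0.223), and -0.55 ± 0.11 (SE) over both (adjusted p = 0.00539).

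KRT16, a type I keratin induced in wounded and hyperproliferative skin, was at 6.10, 6.01 and 6.36 in the parental vehicle arrays and 6.58, 6.68 and 6.58 with HRG. KRT16 in NTC cells was at 6.10, 6.15 and 6.10 with vehicle and 6.74, 6.49 and 6.98 with HRG. The HRG arrays lay above the vehicle arrays in both sets, by 0.46 ± 0.12 (SE) and 0.62 ± 0.12 (SE), and the second was called (adjusted p = 0.000205). Without NTC HRG replicate 3 that rise is 0.50. A second probe set of KRT16, which the annotation shares with its copies KRT16P1, KRT16P2 and KRT16P3, moved by 0.33 and 0.36 and was not called. With the duplexes KRT16 was at 6.03, 6.07 and 6.28 without and 6.19, 6.46 and 6.57 with HRG for #1, and at 6.07, 6.46 and 6.25 without and 6.34, 6.36 and 6.42 with HRG for #2, where vehicle and HRG arrays overlap for each duplex. Neither interaction was called (adjusted p = 0.311 and adjusted p = 0.102).

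KRT5 and KRT14, the pair that defines basal epithelium, were not called in any comparison. KRT5 changed by 0.08 in parental cells (95% interval -0.09 to 0.26) and 0.16 in NTC cells. KRT14 changed by 0.12 (95% interval -0.08 to 0.32) and 0.36 (adjusted p = 0.00625, under 1.5-fold). KRT4, the type II partner of KRT13, changed by -0.02 (95% interval -0.16 to 0.13) and 0.11, and was not called. Of the 7 basal or myoepithelial markers measured, which include KRT5 and KRT14, HRG raised 3 in each control set: the contractile genes CNN1 and ACTA2 and the oxytocin receptor OXTR. The summed log2 level of the 7 ran from 39.7 to 40.8 in parental vehicle and 43.2 to 43.6 in parental HRG arrays, 39.9 to 40.3 and 44.0 to 44.4 in NTC, 39.4 to 40.4 and 40.8 to 41.2 with #1, and 40.1 to 40.5 and 40.1 to 40.4 with #2, and their part in the keratin results was not tested.

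**Figure D2:**
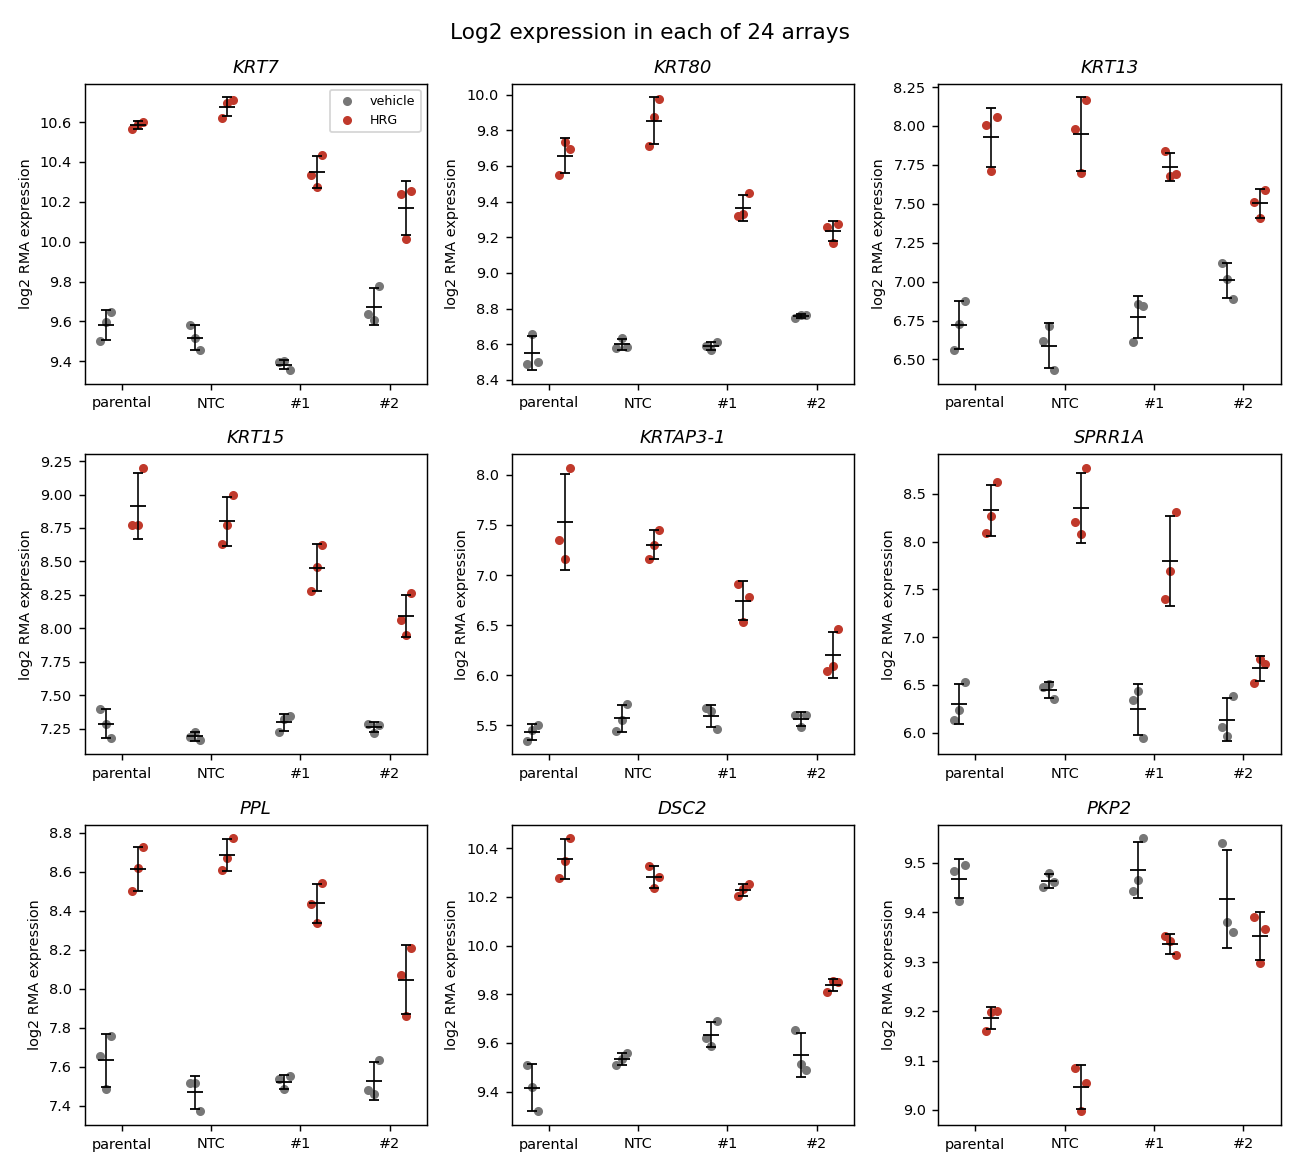
Each point is the log2 RMA expression of 1 array for 9 members, in vehicle (grey) and HRG (red) arrays of parental and NTC cells and of RNAi #1 and #2, with the mean and SD of 3 arrays in black and an axis of its own for each gene. HRG arrays lie above vehicle arrays in every panel but that of PKP2, where they lie below in all groups but #2, and in each panel the gap between vehicle and HRG arrays is smallest with #2.

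KRTAP3-1, a keratin-associated protein of the hair shaft, and SPRR1A, a cross-linked precursor of the cornified envelope, had the largest HRG rises of all members in parental cells. Promoters are shown for these 2 and for SPRR3 and DSC2, the 4 raised members with the largest parental rise among those with a promoter in the RefSeq table (GRCh38.p14). Each window runs from 250 bases before to 50 bases after an annotated start, 5′ to 3′ on the gene's strand. Capitals mark the letters TGANTCA, the motif of AP-1 (FOS and JUN family dimers), or GGAATG, a motif of the TEAD factors, searched on both strands. The windows lie at chr17:41009079-41009378 (minus strand), chr1:152983831-152984130 (plus strand), chr1:153001499-153001798 (plus strand) and chr18:31102372-31102671 (minus strand).
KRTAP3-1: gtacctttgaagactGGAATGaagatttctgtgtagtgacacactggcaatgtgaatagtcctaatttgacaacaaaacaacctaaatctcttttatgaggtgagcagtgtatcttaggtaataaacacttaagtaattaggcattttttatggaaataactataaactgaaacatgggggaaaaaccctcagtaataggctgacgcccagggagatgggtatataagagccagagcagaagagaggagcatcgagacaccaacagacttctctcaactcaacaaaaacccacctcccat
SPRR1A: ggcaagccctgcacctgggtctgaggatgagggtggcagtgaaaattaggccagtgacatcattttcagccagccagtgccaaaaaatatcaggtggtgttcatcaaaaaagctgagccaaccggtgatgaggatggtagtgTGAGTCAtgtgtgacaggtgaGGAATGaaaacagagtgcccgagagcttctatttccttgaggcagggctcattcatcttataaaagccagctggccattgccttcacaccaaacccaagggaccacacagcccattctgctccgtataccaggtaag
SPRR3: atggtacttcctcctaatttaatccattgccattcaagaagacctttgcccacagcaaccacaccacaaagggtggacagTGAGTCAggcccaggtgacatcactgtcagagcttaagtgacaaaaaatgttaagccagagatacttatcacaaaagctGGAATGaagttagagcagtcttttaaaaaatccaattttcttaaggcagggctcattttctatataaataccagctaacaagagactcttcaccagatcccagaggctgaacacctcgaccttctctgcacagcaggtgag
DSC2: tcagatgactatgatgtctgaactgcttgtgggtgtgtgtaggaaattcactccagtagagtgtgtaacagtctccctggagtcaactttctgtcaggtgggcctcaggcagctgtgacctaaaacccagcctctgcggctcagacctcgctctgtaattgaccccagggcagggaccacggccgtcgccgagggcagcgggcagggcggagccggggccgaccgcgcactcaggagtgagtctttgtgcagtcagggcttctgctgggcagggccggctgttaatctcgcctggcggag
SPRR1A holds an AP-1 match that begins 108 bases before the start and a TEAD match 87 bases before it, SPRR3 an AP-1 match at 170 and a TEAD match at 91, and KRTAP3-1 a TEAD match at 235, and DSC2 holds neither set of letters in this window. Promoters were found for 23 of the 39 members. AP-1 letters stood in 9 of these 23 (39.1%), beside 9.37% of all 27305 genes in the table, and TEAD letters in 5 (21.7%), beside 16.7%. Among the 8 raised members with a promoter the AP-1 letters stood in 5, SPRR1A, SPRR3, IVL, EMP1 and SFN. They also stood in the promoters of SPRR1B, SPRR2A, SCEL and S100A2, which were not called with HRG. SPRR1B, SPRR2A and SCEL averaged in the lower 25% of probe sets, where a missing call says little. In NTC cells the HRG arrays of SPRR1B, SCEL and S100A2 all lay above the vehicle arrays, and in parental cells they overlapped. The SPRR2A arrays overlapped in NTC cells, and in parental cells HRG lay below vehicle. These matches describe the letters and are not binding sites.

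KRTAP3-1 was at 5.35, 5.45 and 5.50 in the parental vehicle arrays and 7.35, 7.16 and 8.07 with HRG. KRTAP3-1 in NTC cells was at 5.45, 5.55 and 5.72 with vehicle and 7.16, 7.30 and 7.44 with HRG. Parental HRG replicate 3 was the highest, and even the lowest HRG array of these cells was more than 1 unit above the highest vehicle array. The rises were 2.09 ± 0.16 (SE) (adjusted p = 1.07e-09) and 1.73 ± 0.16 (SE) (adjusted p = 1.85e-08). KRTAP3-1 was at 5.67, 5.64 and 5.47 without and 6.91, 6.54 and 6.78 with HRG under #1, and at 5.60, 5.49 and 5.60 without and 6.04, 6.09 and 6.47 with HRG under #2. All 6 of these HRG arrays lay below all 6 control HRG arrays and above their own vehicle arrays, with rises of 1.15 ± 0.16 (SE) and 0.64 ± 0.16 (SE). The response was smaller by 1.02 over both duplexes (adjusted p = 0.000448) and by 1.28 with #2 (adjusted p = 0.000309). The rise left with #2 is 0.50 and uncalled without P-Rex1 RNAi #2 HRG replicate 3. A second KRTAP3-1 probe set has identical values and was counted as the same measurement.

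SPRR1A was at 6.13, 6.24 and 6.53 in the parental vehicle arrays and 8.09, 8.27 and 8.62 with HRG. SPRR1A in NTC cells was at 6.48, 6.51 and 6.36 with vehicle and 8.21, 8.08 and 8.77 with HRG. The lowest of the 6 HRG arrays was more than 1.5 units above the highest vehicle array, and SPRR1A rose by 2.03 ± 0.20 (SE) (adjusted p = 5.22e-08) and 1.91 ± 0.20 (SE) (adjusted p = 1.25e-07). SPRR1A was at 6.35, 6.44 and 5.94 without and 7.40, 7.69 and 8.31 with HRG under #1, and at 6.06, 5.97 and 6.39 without and 6.52, 6.77 and 6.72 with HRG under #2. The rises were 1.56 ± 0.20 (SE) and 0.53 ± 0.20 (SE), and the #2 HRG arrays lay below every other HRG array. The interaction with #2 was -1.43 ± 0.24 (SE) (adjusted p = 0.00095), that with #1 -0.41 ± 0.24 (SE) (adjusted p = 0.36), and the difference between the duplexes was -1.02 ± 0.28 (SE) (adjusted p = 0.338; 95% interval -1.60 to -0.44).

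SPRR3, the small proline-rich protein of mucosal linings, was at 5.08, 5.06 and 5.27 in the parental vehicle arrays and 5.72, 5.87 and 6.51 with HRG. SPRR3 in NTC cells was at 5.25, 4.92 and 5.13 with vehicle and 5.99, 5.85 and 6.48 with HRG. HRG replicate 3 was the highest in both sets, all HRG arrays were above all vehicle arrays, and the rises were 0.90 ± 0.16 (SE) and 1.00 ± 0.16 (SE). With silencing it was at 5.12, 5.35 and 4.94 without and 5.66, 5.46 and 5.75 with HRG under #1, and at 5.06, 5.13 and 5.32 without and 5.28, 5.36 and 5.43 with HRG under #2. HRG was above vehicle on each array with #1 and overlapped with vehicle for #2, and neither rise was called (0.49 ± 0.16 (SE) and 0.18 ± 0.16 (SE)). The interaction over both duplexes was -0.61 ± 0.16 (SE) (adjusted p = 0.0296), a call lost, with the estimate between -0.60 and -0.52, when any 1 of 7 arrays is left out: parental vehicle 2, NTC vehicle 2, NTC HRG 3, #1 vehicle 2, #1 HRG 2, #2 vehicle 3 or #2 HRG 1. The call over both duplexes is also lost without the 4 arrays that stand apart (-0.52, adjusted p = 0.0807). The interaction with #2 was -0.77 ± 0.20 (SE) (adjusted p = 0.0329), lost without parental vehicle 1 or 2, NTC vehicle 2, #2 vehicle 2 or 3 or #2 HRG 1 or 2. Against NTC cells alone both calls are lost, at -0.67 over both duplexes (adjusted p = 0.0641) and -0.82 with #2 (adjusted p = 0.0638). The other 3 members of the family, SPRR1B, SPRR2A and SPRR2D, averaged in the lower 25% of probe sets and changed by 0.12, -0.18 and -0.11 in parental cells, with no call.

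Among the other proteins of the cornified envelope, PPL rose in both controls and IVL in parental cells, while TGM1, EVPL, SCEL and CSTA were not called in any comparison. Periplakin (PPL), which links the envelope to keratin filaments and to desmosomes, was at 7.66, 7.49 and 7.76 in the parental vehicle arrays and 8.50, 8.62 and 8.73 with HRG. PPL in NTC cells was at 7.52, 7.52 and 7.37 with vehicle and 8.61, 8.67 and 8.77 with HRG. The arrays did not overlap, and PPL rose by 0.98 ± 0.09 (SE) (adjusted p = 9.98e-09) and 1.21 ± 0.09 (SE) (adjusted p = 3.81e-10). With the duplexes PPL was at 7.54, 7.48 and 7.55 without and 8.43, 8.34 and 8.54 with HRG under #1, and at 7.48, 7.46 and 7.64 without and 8.07, 7.86 and 8.21 with HRG under #2. All #2 HRG arrays and 2 of the 3 #1 HRG arrays lay below the control HRG arrays. The response was smaller by 0.58 with #2 (interaction -0.58 ± 0.11 (SE), adjusted p = 0.00195) and its interaction with #1 was -0.19 ± 0.11 (SE) (adjusted p = 0.341).

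Involucrin, an early component of the envelope, was at 5.54, 5.90 and 6.20 in the parental vehicle arrays and 6.48, 6.79 and 6.82 with HRG. IVL in NTC cells was at 5.75, 5.83 and 6.07 with vehicle and 6.35, 6.33 and 6.69 with HRG. The spread between replicates was wide, although all HRG arrays lay above all vehicle arrays. IVL rose by 0.82 ± 0.15 (SE) (adjusted p = 0.00013) and by 0.57 ± 0.15 (SE) in NTC cells, just under the fold threshold. With silencing IVL was at 5.80, 5.69 and 5.88 without and 6.19, 6.36 and 6.18 with HRG under #1, and at 5.95, 5.46 and 5.90 without and 6.42, 6.59 and 6.65 with HRG under #2. HRG was above vehicle without overlap in both, by 0.45 ± 0.15 (SE) and 0.79 ± 0.15 (SE), and only the second was called. The interaction was -0.24 ± 0.18 (SE) with #1 (95% interval -0.61 to 0.13) and 0.09 ± 0.18 (SE) with #2 (95% interval -0.28 to 0.46), so IVL was the 1 raised member whose #2 estimate was not below the controls. Of the 708 probe sets that HRG raised in parental or NTC cells, 94.2% had a #2 estimate below the controls. Transglutaminase 1 (TGM1), the enzyme that cross-links these proteins, changed by -0.11 in parental cells (95% interval -0.28 to 0.06) and -0.02 in NTC cells. Envoplakin (EVPL), the partner of PPL, changed by -0.20 ± 0.07 (SE) (adjusted p = 0.0277, under 1.5-fold) and -0.02. SCEL and CSTA averaged in the lower 25% of probe sets and moved by at most 0.14 in the controls.

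Of the calcium-binding S100 proteins, SFN and EMP1, only SFN and EMP1 were called. EMP1, a membrane protein of squamous epithelium, was at 6.39, 6.32 and 6.45 in the parental vehicle arrays and 7.16, 7.07 and 7.34 with HRG. EMP1 in NTC cells was at 6.45, 6.42 and 6.30 with vehicle and 7.09, 7.24 and 7.18 with HRG. HRG arrays were above vehicle arrays throughout, by 0.80 ± 0.08 (SE) and 0.78 ± 0.08 (SE). EMP1 was at 6.27, 6.30 and 6.42 without and 6.84, 6.92 and 7.12 with HRG under #1, and at 6.54, 6.37 and 6.58 without and 6.81, 6.65 and 6.75 with HRG under #2. Of the HRG arrays, 2 of 3 with #1 and all 3 with #2 lay below the controls, with rises of 0.63 ± 0.08 (SE) and 0.24 ± 0.08 (SE). The interaction was -0.35 ± 0.08 (SE) over both duplexes (adjusted p = 0.0111) and -0.55 ± 0.10 (SE) with #2 (adjusted p = 0.00169). Against NTC cells alone the first is -0.34 with an adjusted p of 0.0546.

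SFN (14-3-3 sigma), an adaptor protein of stratified epithelium, was at 9.67, 9.63 and 9.74 in the parental vehicle arrays and 10.24, 10.33 and 10.43 with HRG. SFN in NTC cells was at 9.55, 9.57 and 9.56 with vehicle and 10.27, 10.41 and 10.50 with HRG. It rose by 0.65 ± 0.07 (SE) and 0.83 ± 0.07 (SE) with no overlap. SFN stood at 9.45, 9.47 and 9.57 without and 10.04, 10.08 and 10.25 with HRG under #1, and at 9.40, 9.38 and 9.52 without and 9.85, 9.77 and 10.04 with HRG under #2. The #2 vehicle arrays were below every control vehicle array and the #2 HRG arrays below every other HRG array, with a rise of 0.46 ± 0.07 (SE) that is under 1.5-fold, and 0.63 ± 0.07 (SE) with #1. Neither interaction was called (adjusted p = 0.489 with #1 and adjusted p = 0.0868 with #2). S100A2, S100A7, S100A8 and S100A9 changed by between -0.01 and 0.19 with HRG in parental cells. S100A8 stood 0.56 ± 0.12 (SE) above the controls with #2 without HRG (adjusted p = 0.00889) and 0.56 ± 0.12 (SE) with HRG (adjusted p = 0.00242), just under the fold threshold in both.

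In the desmosome HRG raised the cadherins DSC2 and DSG2 in both controls and the plakophilin PKP3 in NTC cells, and the core linkers DSP and JUP were not called. Desmocollin 2 (DSC2) was at 9.51, 9.42 and 9.32 in the parental vehicle arrays and 10.28, 10.35 and 10.44 with HRG. DSC2 in NTC cells was at 9.51, 9.53 and 9.56 with vehicle and 10.33, 10.24 and 10.28 with HRG. The HRG arrays lay above every vehicle array with a clear gap, and DSC2 rose by 0.94 ± 0.06 (SE) (adjusted p = 4.2e-11) and 0.75 ± 0.06 (SE) (adjusted p = 1.35e-09). With the duplexes it was at 9.62, 9.59 and 9.69 without and 10.20, 10.23 and 10.25 with HRG under #1, and at 9.65, 9.51 and 9.49 without and 9.81, 9.86 and 9.85 with HRG under #2. The #2 HRG arrays lay below every other HRG array, and DSC2 rose by 0.29 ± 0.06 (SE) with #2 and 0.59 ± 0.06 (SE) with #1, a call lost without #1 vehicle replicate 2 or HRG replicate 3. The response was smaller by 0.40 over both duplexes (interaction -0.40 ± 0.06 (SE), adjusted p = 0.000212) and by 0.56 with #2 (adjusted p = 4.25e-05), and the interaction with #1 was -0.25 ± 0.07 (SE) (adjusted p = 0.0824).

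Desmoglein 2 (DSG2), the partner of DSC2 in simple epithelia, was at 9.24, 9.13 and 9.0 in the parental vehicle arrays and 9.78, 9.86 and 9.96 with HRG. DSG2 in NTC cells was at 9.21, 9.23 and 9.15 with vehicle and 9.90, 9.85 and 9.76 with HRG. It rose without overlap by 0.74 ± 0.07 (SE) and 0.64 ± 0.07 (SE). DSG2 was at 9.27, 9.08 and 9.32 without and 9.79, 9.85 and 9.86 with HRG under #1, and at 9.19, 9.09 and 9.05 without and 9.49, 9.45 and 9.57 with HRG under #2, with rises of 0.61 ± 0.07 (SE) and 0.39 ± 0.07 (SE), the first of which is 0.53 without #1 vehicle replicate 2. None of the #1 HRG arrays and all of the #2 HRG arrays lay below the control HRG arrays. The interaction with #2 was -0.30 ± 0.09 (SE) (adjusted p = 0.0499), at the threshold, and the call is lost when any 1 of 18 arrays is left out, that is, each array other than parental vehicle 1, parental HRG 1, NTC HRG 3, #1 vehicle 2, #1 vehicle 3 and #2 HRG 3. The cadherins of stratified epithelium, DSG3 and DSC3, averaged in the lower 25% of probe sets and changed by -0.04 and -0.03 in parental cells.

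Of the plakophilins, PKP3 was called higher in NTC cells, PKP2 was lower by less than 1.5-fold and PKP1 was not called. PKP3 was at 7.68, 7.62 and 7.64 in the parental vehicle arrays and 7.89, 8.06 and 8.02 with HRG. PKP3 in NTC cells was at 7.5, 7.55 and 7.43 with vehicle and 8.08, 8.10 and 8.14 with HRG. HRG arrays were above vehicle arrays in both, by 0.34 ± 0.07 (SE) and 0.61 ± 0.07 (SE), and the second passed 1.5-fold but is 0.58 without NTC vehicle replicate 3. With silencing it was at 7.56, 7.71 and 7.58 without and 8.06, 8.0 and 8.07 with HRG under #1, and at 7.60, 7.57 and 7.58 without and 7.76, 7.69 and 7.99 with HRG under #2, and neither interaction was called (adjusted p = 0.742 and adjusted p = 0.103).

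PKP2, the plakophilin of simple epithelia, was at 9.48, 9.42 and 9.50 in the parental vehicle arrays and 9.16, 9.20 and 9.20 with HRG. PKP2 in NTC cells was at 9.45, 9.48 and 9.46 with vehicle and 9.09, 9.0 and 9.05 with HRG. All 6 HRG arrays were below all 6 vehicle arrays, with changes of -0.28 ± 0.05 (SE) (adjusted p = 0.000174) and -0.42 ± 0.05 (SE) (adjusted p = 1.28e-06), both under 1.5-fold. In silenced cells PKP2 was at 9.44, 9.47 and 9.55 without and 9.35, 9.34 and 9.31 with HRG under #1, and at 9.54, 9.38 and 9.36 without and 9.39, 9.30 and 9.37 with HRG under #2. Here HRG changed it by -0.15 ± 0.05 (SE) and -0.08 ± 0.05 (SE), and the vehicle and HRG arrays of #2 overlapped. PKP2 was the 1 member with a positive interaction that was called, 0.24 ± 0.05 (SE) over both duplexes (adjusted p = 0.00797) and 0.27 ± 0.06 (SE) with #2 (adjusted p = 0.014). The call with #2 is lost without #2 vehicle replicate 2 or 3 or #2 HRG replicate 1, or without the 4 arrays that stand apart (0.26). PKP1 changed by 0.10 ± 0.12 (SE) in parental cells, JUP by 0.10 ± 0.05 (SE) and DSP by -0.06 ± 0.05 (SE). DSP, which anchors the keratin filaments, fell short of a call in all 4 HRG responses, with changes between -0.14 and -0.03.

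Across the set, the HRG response was smaller with both duplexes together for 10 of the 39 and larger for 1, PKP2, where the adjusted p was below 0.05 and #1 and #2 pointed the same way, beside 5.8% of all probe sets in either direction, 2% lower and 3.8% higher. With #2 alone the response was lower for 12 and higher for 1 (1.85% and 2.1% of all probe sets, 3.94% in either direction), and with #1 alone it was lower for 1, KRT80 (0.442%), and higher for 0 (0.718%), with 8 lower and 2 higher at an unadjusted p under 0.05, beside 18.9% of all probe sets. With the replicate number as a block the count with #1 is 3. The median member changed by -0.15 over both duplexes and the median probe set by 0.00. These comparisons share their control arrays. All 10 genes lowered by both duplexes together were among the 16 that HRG raised, and 62.5% of these 16 compare with 35.3% of the 708 probe sets that HRG raised in parental or NTC cells. With #2 the shares were 75% and 41.9%, with #1 6.25% and 7.2%, and in the direct comparison of the duplexes 0% and 1.84%. Since the control arrays both chose the raised genes and enter the interaction, these shares are a description.

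As a share of the mean control response on the log2 scale, the 16 raised members kept between 50.9% and 91.5% with #1 and between 19.2% and 113% with #2, with medians of 77.1% and 43.0%. Of these 16, 15 had a smaller response with #2 than with #1, beside 91.9% of the 708 probe sets that HRG raised in parental or NTC cells. Against the controls 16 were smaller with #1 and 15 with #2, beside 74.4% and 94.2% of the 708. The control arrays chose these genes and also form the denominator, so the shares are a description. At the low end with #2 were SPRR3 at 19.2% ± 17.5 (SE), KRT16 at 20.9% ± 21.6 (SE) and SPRR1A at 27.2% ± 10.3 (SE), and at the high end IVL at 113.4% ± 26.8 (SE). KRT23 kept 91.5% ± 12.8 (SE) with #1 and 46.1% ± 11.3 (SE) with #2, and KRT7 89.2% ± 7.15 (SE) and 45.8% ± 6.36 (SE). Against the control HRG arrays, PREX1 fell by 0.97 with #1 and by 0.77 with #2. In a direct comparison of their HRG responses 0 of the 39 members differed at an adjusted p under 0.05, beside 0.0665% of all probe sets, and 1 did with the replicate number as a block. At an unadjusted p under 0.05, 11 were lower with #2 and 0 higher, beside 7.49% of all probe sets in either direction. KRT7 came closest, at -0.47 ± 0.09 (SE) (adjusted p = 0.0598; 95% interval -0.66 to -0.28).

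**Figure D3:**
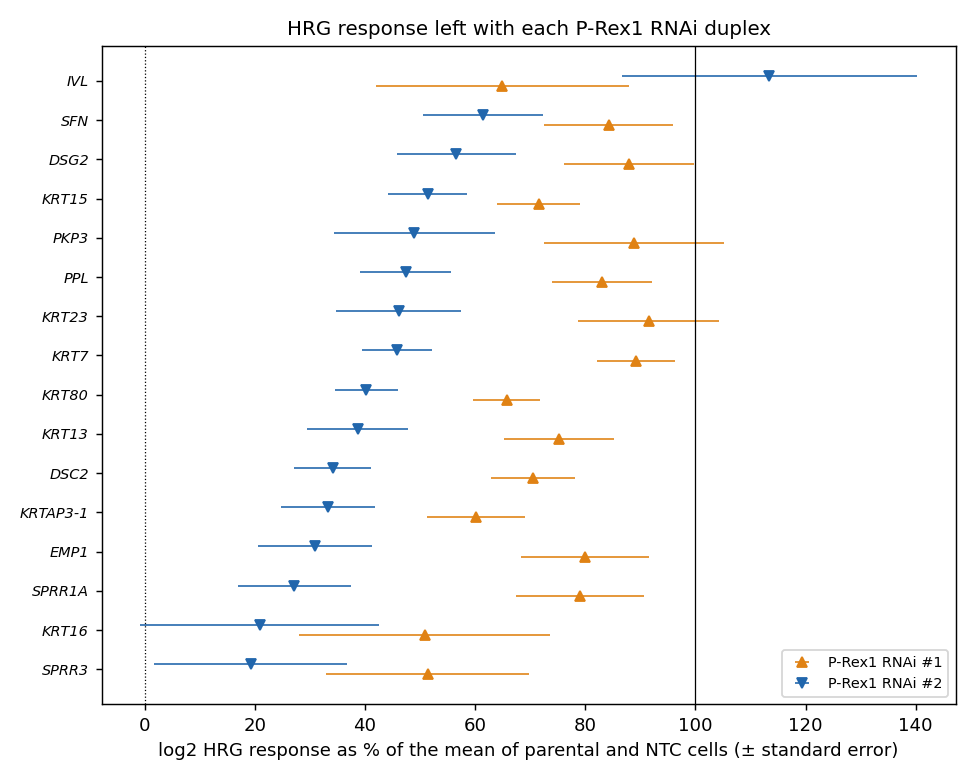
The x axis gives the log2 HRG response with P-Rex1 RNAi #1 (triangles up) or #2 (triangles down) as a percentage of the mean response of parental and NTC cells, with bars of 1 standard error, for the 16 members raised by HRG in either control. With #1 the genes lie between 50.9% and 91.5%, and with #2 all but IVL (113%) lie to the left of their #1 point. Of all 708 probe sets that HRG raised in either control, 91.9% had a smaller response with #2 than with #1.

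Without HRG, silencing moved no member past both thresholds. With #1 against the mean of parental and NTC vehicle arrays 0 of 39 passed (0.0285% of all probe sets) and 4 had an unadjusted p under 0.05 (11.8%). With #2 0 passed (0.181%) and 12 had an unadjusted p under 0.05 (13.7%), led by KRT4 at 0.36 ± 0.06 (SE) (adjusted p = 0.000831), KRT18 at 0.31 ± 0.05 (SE) (adjusted p = 0.00162) and S100A8, all under 1.5-fold. The other KRT18 probe sets gave 0.18 (adjusted p = 0.0511) and, for the shared one, 0.26 (adjusted p = 0.00399). NTC and parental vehicle arrays differed for 0 members (0% of all probe sets), with 1 at an unadjusted p under 0.05 (5.72%).

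With HRG, #1 lowered 1 member, KRTAP3-1, by 0.67 on the log2 scale against the control HRG arrays (-0.67 ± 0.14 (SE), adjusted p = 0.00542), and raised 0, beside 0.185% of all probe sets called, 0.147% lower and 0.038% higher. At an unadjusted p under 0.05, 15 members were lower and 2 higher, beside 19.5% of all probe sets. That call is lost without parental HRG replicate 3 or #1 HRG replicate 2 (-0.54 and -0.57). Under #2 there were 5 members lower and 0 higher (0.893% and 0.114% of all probe sets, 1.01% together), and at an unadjusted p under 0.05 21 were lower and 4 higher (25% of all probe sets). The 5 were SPRR1A at -1.67 ± 0.17 (SE), KRTAP3-1 at -1.21 ± 0.14 (SE), KRT15 at -0.76 ± 0.09 (SE), SPRR3 at -0.71 ± 0.14 (SE) and PPL at -0.60 ± 0.07 (SE). PPL is under 1.5-fold without parental HRG replicate 3, NTC HRG replicate 3 or #2 HRG replicate 2. KRT80, KRT7 and DSC2 were lower by less than 1.5-fold, at -0.52 ± 0.06 (SE), -0.46 ± 0.06 (SE) and -0.48 ± 0.05 (SE).

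Most members sit in 4 gene clusters, and within each the raised genes were few. In the clusters on chromosomes 12, 17 and 1 some of them were neighbours, and on chromosome 18 DSC2 and DSG2 were not. This description was made after the values were seen, and it has no test. Over all probe sets tested, 2.86% were higher with HRG in parental cells. In the desmosomal cadherin cluster on chromosome 18, where all 7 protein-coding genes were measured, DSC2 and DSG2 rose and the 5 genes DSC3, DSC1, DSG1, DSG4 and DSG3 did not, with parental changes between -0.17 and 0.01. Over all arrays DSC3, DSG1, DSG4 and DSG3 averaged 3.38, 3.46, 3.97 and 3.66, below 4.27, the lower 25% level of the lowest array. DSC1 averaged 4.70. In the type II keratin cluster on chromosome 12, 2 of 21 measured genes rose, the neighbours KRT80 and KRT7 at one end. In the type I cluster on chromosome 17, 6 of 32 measured genes rose in parental cells: KRT20 and KRT23 side by side, KRTAP3-2 and KRTAP3-1 side by side, and KRT13 and KRT15 side by side, with KRT19 next to KRT15 at 0.02. In the epidermal differentiation complex on chromosome 1, 3 of 52 rose in parental cells, IVL, SPRR1A and SPRR3, with SPRR1B next to SPRR3 at 0.12. SPRR1B averaged 4.23, also below that 25% level. Whether uncalled genes at such low levels were expressed at all was not tested.

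**Figure D4:**
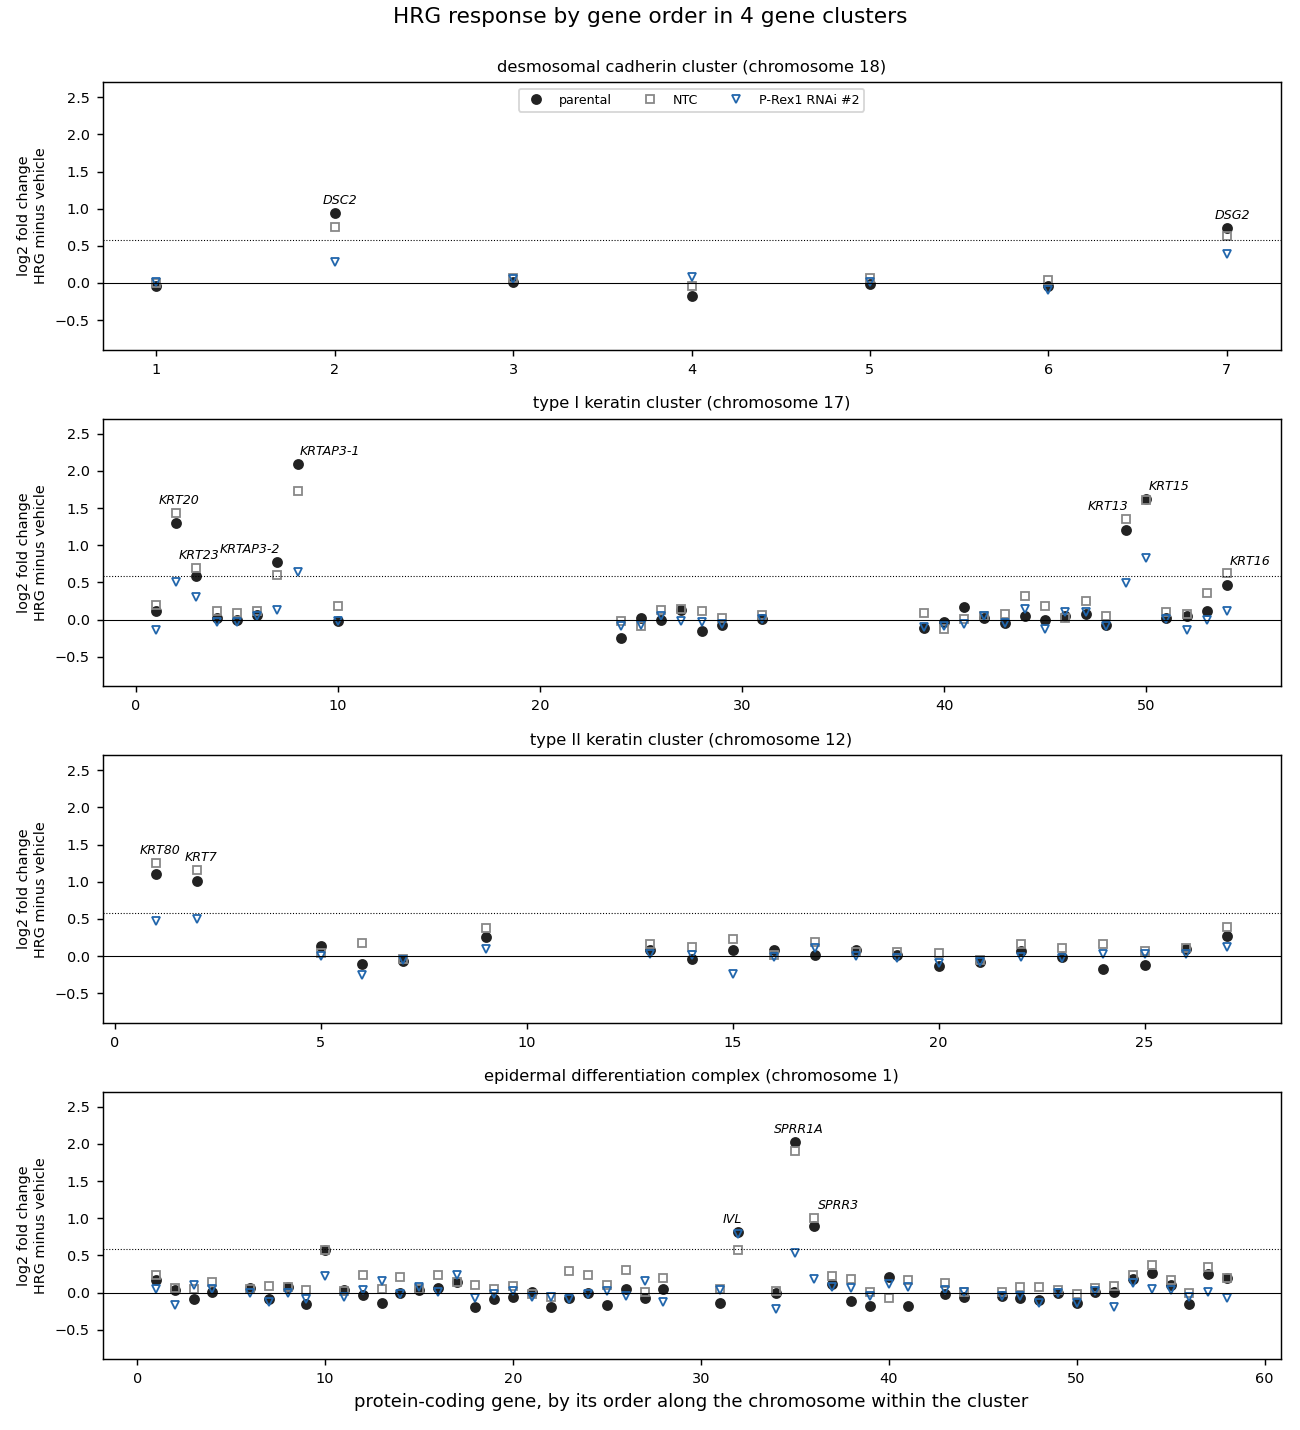
The y axis gives the log2 fold change, HRG minus vehicle, in parental, NTC and P-Rex1 RNAi #2 cells for each measured protein-coding gene of 4 clusters, placed on the x axis by its order along the chromosome, with a dotted line at 1.5-fold and names for genes called in parental or NTC cells. DSC2 and DSG2 stand above neighbours near 0. KRT80 and KRT7, KRT13 and KRT15, and KRTAP3-2 and KRTAP3-1 stand as raised pairs side by side, and SPRR1A lies next to SPRR3, which also rose.

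Further genes of the same pathways were counted on lists beside the members. By the same rule 2.86% of all probe sets tested were higher and 2.41% lower in parental cells. Of 32 other cornified envelope genes measured, HRG raised 2 and lowered 0 in parental cells, the epidermal lipoxygenase ALOXE3 by 1.36 ± 0.09 (SE) and annexin ANXA1, an envelope component, by 2.25 ± 0.09 (SE). Of 38 other keratin and keratin-associated genes 2 rose, KRT20, a type I keratin of the gut lining, by 1.30 ± 0.17 (SE) and KRTAP3-2 by 0.78 ± 0.07 (SE). Of 15 partners of the desmosome and hemidesmosome 2 rose, the integrin chain ITGA6 by 0.98 ± 0.06 (SE) and the laminin chain LAMB3 by 0.84 ± 0.08 (SE). Of 23 transcription factors known from keratinocytes 3 rose, KLF4 by 1.39 ± 0.11 (SE), NOTCH1, a receptor counted with them, by 0.81 ± 0.08 (SE) and GRHL3 by 0.64 ± 0.09 (SE). In the order given, 6.25%, 5.26%, 13.3% and 13% of the measured genes of these lists were called in parental cells. Over all probe sets 5.27% were called in either direction. The parental medians of these lists lay between -0.00 and 0.06 on the log2 scale, beside -0.03 over all probe sets.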

How the data were processed

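Total RNA of 24 T-47D cultures was hybridised to Affymetrix Human Gene 1.0 ST arrays. The deposited log2 values were made by the authors with RMA in simpleaffy (versions not given in the sources used here). Arrays give no read depth, so their number (3 a group) limits precision. Groups came from the sample labels. The platform annotation gives 19292 of the probe sets 1 symbol, 1750 several and 7494 none, and no gene was named from a probe set with several symbols except where it is stated as shared.

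Group means of all 24 arrays were fitted in 1 linear model with limma 3.58.1 (R 4.3.3), with Benjamini-Hochberg adjustment over 21042 probe sets. HRG responses and RNAi effects were called where the adjusted p was below 0.05 and the change more than 1.5-fold. Changes of the HRG response (interactions against the mean of parental and NTC cells) were called at an adjusted p under 0.05, and for both duplexes together also with both in the same direction. Rank Products, the test of the study's methods, was an alternative, with thresholds, filters, probe sets, control choice, replicate block and leaving out each array. The model was tested on simulated data with known changes, some up and some down. For the HRG response in parental cells 20 of the 50 probe sets set to a 1.5-fold change were called, and all 50 set to 2-fold. A change of 1.5-fold lies at the call threshold itself, so the count of 20 reflects the threshold and does not measure power. The simulated noise was independent between arrays, with no replicate effect or outlying array, unlike the real arrays.

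Members called in an HRG response of parental or NTC cells or in a contrast of P-Rex1 RNAi are given array by array and the others by range, count or change, with up to 4 called genes of each further list by the size of the change in parental cells. The members, the further lists and the marker lists (luminal, basal or myoepithelial, leukocyte, fibroblast, endothelial) were chosen with earlier results of these data known. Promoters came from RefSeq (GRCh38.p14). Protein sequences were not used here.

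Whether replicate numbers pair vehicle and HRG arrays was checked by the correlation of their deviations from the group means. For pairs of the same number it was 0.12, 0.14 and 0.25 in parental cells and 0.39, 0.30 and 0.22 with #2, where every pair is over 0.1, and 0.14, 0.04 and 0.24 in NTC cells and 0.25, -0.05 and 0.19 with #1, where 1 pair in each is not. Pairs of different numbers ran lower, mostly below 0, from -0.35 (with #2) to 0.17 (in NTC cells). Deviations within a group sum to 0, so positive values for the same number push the others below 0, and these add no evidence of their own. On the first principal component (53.6% of the variance) HRG arrays rose from replicate 1 to 3 in every group. In that order they lay at 19.8, 22.1 and 26.2 in parental and 21.5, 22.3 and 27.5 in NTC cells. With #1 they lay at 14.5, 16.8 and 20.0, and with #2 at 5.3, 7.2 and 9.0. Vehicle arrays lay between -19.4 and -16.1. The main fit does not model this replicate order. The fit without the block was kept, and counts that the block moves are given beside the result. Whether replicates were separate in every step of culture is not stated beyond their label as biological replicates.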

Additional observations from a re-analysis of the deposited data

Results flagged for a closer look

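The results listed here are members whose HRG response differed between silenced and control cells by the interaction term of the model, at an adjusted p under 0.05. Each value is the difference between log2 HRG responses, silenced minus the mean of parental and NTC cells. Over both duplexes together these were DSC2 (-0.40), EMP1 (-0.35), KRT13 (-0.55), KRT15 (-0.62), KRT7 (-0.35), KRT80 (-0.56), KRTAP3-1 (-1.02), PKP2 (0.24), PPL (-0.38), SPRR1A (-0.92) and SPRR3 (-0.61). With P-Rex1 RNAi #1 alone the 1 member was KRT80 (-0.40). With P-Rex1 RNAi #2 alone they were DSC2 (-0.56), DSG2 (-0.30), EMP1 (-0.55), KRT13 (-0.79), KRT15 (-0.79), KRT23 (-0.35), KRT7 (-0.59), KRT80 (-0.71), KRTAP3-1 (-1.28), PKP2 (0.27), PPL (-0.58), SPRR1A (-1.43) and SPRR3 (-0.77). The lists share their control arrays. No group has 4 or more arrays, so single outlying arrays were not tested for.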

How the results depend on the processing

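No direction of a member's called change reversed under any alternative run. Only changes of single members called in the main fit were followed here, so calls gained under an alternative are not in these counts. Of their values, 710 under other settings and 1740 with 1 array left out kept the call, and 50 and 60 lost it. An array outside a comparison cannot move its estimate, and dropping the fold threshold cannot lose a call. Many of the kept calls were therefore fixed in advance, and the counts do not measure stability. With Rank Products, at an unadjusted p and the same fold threshold, HRG raised 14 members in parental and 15 in NTC cells and lowered 0. Over all probe sets it called 602 higher and 508 lower in parental cells, beside 601 and 507 with limma. It used the same arrays and treated array pairs that share arrays as independent, so it is no separate check.

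The fold threshold sets several counts. With a fold over 2, HRG raised 6 members in parental cells, 8 in NTC cells, 3 with #1 and 0 with #2, and with HRG #1 lowered 0 and #2 called 2. With no fold threshold HRG lowered 2 in parental cells, 1 in NTC cells and 1 with #1, and raised 13 and lowered 1 with #2, while #2 without HRG called 6, #1 with HRG 8 and #2 with HRG 22. The change of the HRG response with #1 was called for 2 members without dim probe sets, 2 with an intensity trend and 0 without the 4 arrays that stand apart. The direct comparison of the duplexes called 1 without dim probe sets and 1 with the trend. The call of #1 with HRG fell to 0 with only the arrays compared and to 0 against NTC cells alone.

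With the replicate number as a block, the change of the HRG response with #1 was called for 3 members and the direct comparison of the duplexes for 1, and no other count moved by over 1.5 times.

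Leaving out 1 array in turn gave 13 to 14 raised members in parental cells, 14 to 16 in NTC cells, 8 to 12 with #1 and 2 to 4 with #2. The change of the response was called lower or higher for 10 to 13 members over both duplexes, 0 to 2 with #1 and 9 to 14 with #2, and 0 to 0 members in the direct comparison of the duplexes. Silencing called 0 to 1 members with #2 without HRG, 0 to 2 with #1 and 4 to 6 with #2 with HRG. With 3 arrays a group, several calls of rises near 1.5-fold turn on single arrays, and 7 members average in the lower 25% of probe sets. The causes were not tested.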
